A study of Mus musculus with 60 samples.

Results

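The ventral forebrain and the ventral hindbrain of the mouse embryo were compared at embryonic stage E14.5 by bulk RNA sequencing of dissected tissue. The comparison takes the columns of the deposited expression table that the labels give as ventral forebrain or ventral hindbrain at E14.5, with 3 libraries of each region, so 6 of the 60 libraries of the study. The study collected 5 brain regions at 4 stages around the dopaminergic niche of the ventral midbrain. All embryos, those of both regions here included, carried a TH-GFP transgene, a green fluorescent reporter driven by regulatory sequence of tyrosine hydroxylase that was viewed under a stereomicroscope during dissection. No embryo had another treatment or mutation per the labels, and the borders of the forebrain and hindbrain pieces are not given in them. The libraries are numbered 2, 3 and 4 in both regions, and values are listed in that order throughout. Whether a region's 3 libraries derive from different embryos or litters is not stated in the labels. The p-values therefore measure the spread among these samples alone, which may be technical in part. Nearly all Y-linked reads fell in replicate 2 of each region, so its tissue differed in sex from that of replicates 3 and 4. The spread between them thus holds a difference between embryos.

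Values are RPKM, reads per kilobase of transcript and per 1000000 reads assigned to genes. Differences are forebrain minus hindbrain on the scale of log2(RPKM + 1) with their standard error, so they understate the fold of genes with low values. A gene was called, and is written as higher or lower, at an adjusted p below 0.05 (limma, Benjamini-Hochberg over all genes tested) and an absolute log2 difference of at least 1. Depth was 2493976, 979197 and 5822096 reads in the forebrain libraries and 2156813, 4448011 and 5362043 reads in those of the hindbrain. A gene without a read could have had up to 3 reads, which is 1.20, 3.06 and 0.515 reads per 1000000 in the forebrain libraries and 1.39, 0.674 and 0.559 in the hindbrain libraries. These limits cover counting error only. In tissue samples, fewer cells of a type and less RNA per cell cannot be told apart.

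As background, the neural tube is divided along its length by transcription factors that are switched on in bands. The ventral forebrain gives rise to the hypothalamus and the basal telencephalon, where NKX2-1, SIX3, RAX and the DLX family set the identity of progenitors and neurons. The ventral hindbrain gives rise to the raphe serotonergic neurons, cranial motor neurons and reticular interneurons, under the control of HOX, IRX, GATA and PAX factors, and its border with the midbrain, the isthmus, is marked by the engrailed genes. Sonic hedgehog patterns the ventral side of both, and in the hindbrain the floor plate is a source of it.

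The libraries of a region differed among themselves, hindbrain replicate 2 and forebrain replicate 3 most. Hindbrain replicate 2 had 120 genes at least 1 log2 unit above both other hindbrain libraries and 87 below them, against 5 to 9 above and 3 to 4 below for each of the other hindbrain libraries, out of 13587 genes. It was rich in genes of the isthmus, dorsal hindbrain and midbrain. En2, an engrailed gene of the isthmus, was at 58.0, 8.78 and 5.85 RPKM in the hindbrain libraries, and Zic1, a dorsal neural factor, at 55.6, 1.37 and 1.14 RPKM (Zic1 was chosen after its values were seen). The same library was poor in raphe and floor plate genes: Slc6a4, the serotonin transporter, was at 2.44, 29.7 and 24.7 RPKM and Foxa2, a floor plate factor, at 0, 4.44 and 4.52 RPKM. Forebrain replicate 3, the shallowest library, had 80 genes above both other forebrain libraries and 32 below, against 31 above and 40 below for replicate 2 and 15 and 16 for replicate 4. It held most of the RNA of connective tissue genes and was the only library with reads of the pituitary hormone genes Cga and Tshb, as given further on. Sex-linked genes split the libraries of both regions alike, with nearly all reads of the Y-linked genes in replicate 2 of each.

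**Figure D1:**
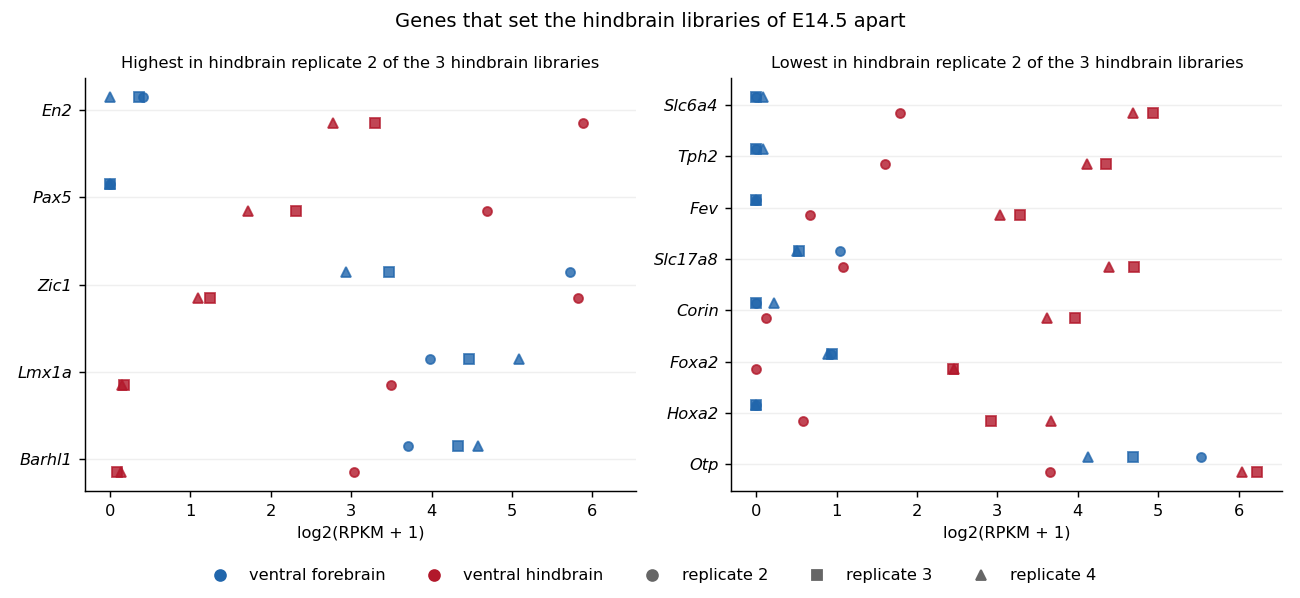
Values of 13 genes in the 6 libraries of E14.5 as log2(RPKM + 1) on the horizontal axis, with colour for the region and marker shape for the replicate. The genes were picked because hindbrain replicate 2 stands apart in them, so the figure is an illustration and no test. Hindbrain replicate 2 (red circles) lies above the other hindbrain libraries for the genes on the left, such as En2 at 58.0 RPKM, and below them for those on the right, such as Slc6a4 at 2.44 RPKM.

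The test covered 13587 genes and called 347 (2.55%), of which 160 (1.18%) were higher and 187 (1.38%) lower in the forebrain. In all 347 the libraries of the regions did not overlap, which was also the case for 31.1% of all genes tested. The median difference over all genes was 0.03. At an unadjusted p below 0.05 by limma there were 3408 of the 13587 genes. Counts at that level in the lists below are to be read beside this share. The count depended on single libraries: it was 509 (3.74%; 1.68% higher and 2.06% lower) without hindbrain replicate 2 and 200 (1.48%; 0.709% higher and 0.768% lower) without forebrain replicate 3, and 189 to 208 without forebrain replicate 4, hindbrain replicate 3 or hindbrain replicate 4. Without hindbrain replicate 2, 300 of the 347 genes were still called in the same direction and 209 others joined them. In every fit that left out 1 library, 149 genes were called. Hindbrain replicates 3 and 4 were much alike, with r = 0.989 across genes, against 0.960 and 0.963 for each with replicate 2. The hindbrain spread in the fit without replicate 2 rests on these libraries alone. For genes in which replicate 2 stands apart, that fit is no independent test. Near the thresholds, Peg12 (adjusted p = 0.0496) and Cybrd1 (0.0499) were just inside and Cdca3 (0.0502) and Dbh (0.0504) just outside by limma's adjusted p. By size, Epha10 (-1.001) was inside and Cntn1 (-0.998) outside.

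**Figure D2:**
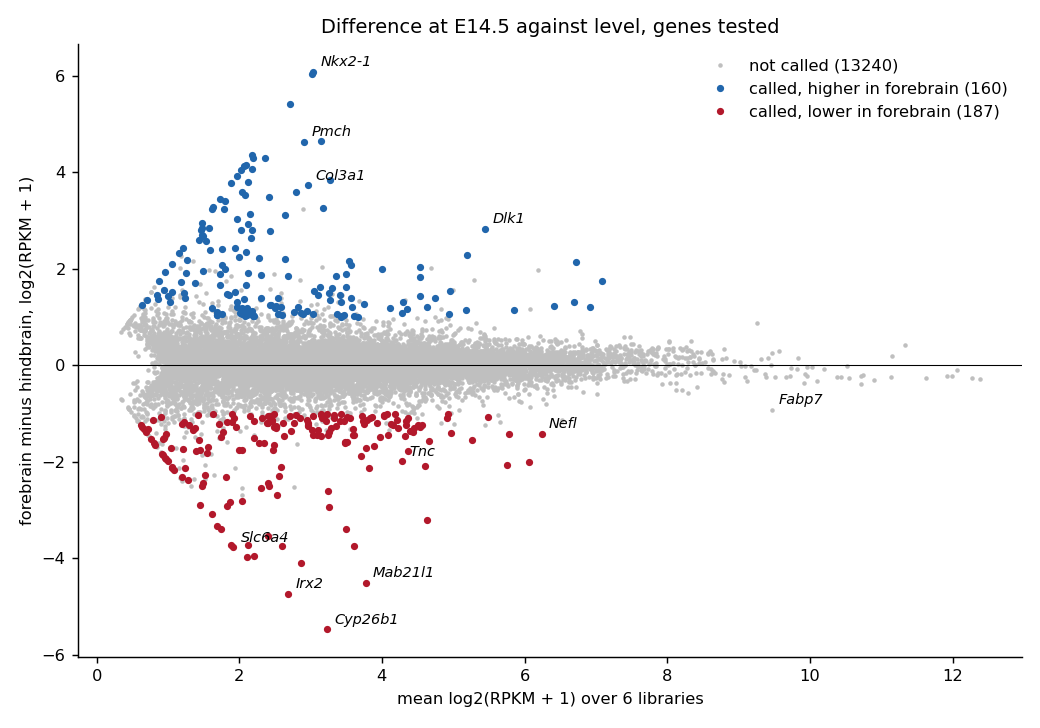
Forebrain minus hindbrain difference in log2(RPKM + 1) against the mean level over the 6 libraries, 1 point per gene tested, with called genes in blue (160, higher in the forebrain) and red (187, lower). The outermost points are Nkx2-1 at 6.08 and Cyp26b1 at -5.46, and Fabp7, a gene of high level, differs by less than 1.

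The forebrain libraries carried the transcription factors of their label. Nkx2-1, the homeobox gene that specifies hypothalamus and basal telencephalon (chr12:56531958-56536908, minus strand, mm10), was at 48.3, 76.1 and 80.5 RPKM in the forebrain libraries and had no read in the 3 hindbrain libraries. That is at least 808-fold higher, taking 3 reads over the hindbrain group as the limit, with a difference of 6.08 ± 0.20 (adjusted p = 1.21e-05, limma). Of the 34 tested genes in a list of 36 ventral forebrain transcription factors, 22 were higher and none lower, with a median of 2.70. Leaving out hindbrain replicate 2 gave 23 higher, and leaving out forebrain replicate 3 gave 19 of 35. At E13.5, 13 were higher and 1 lower of 33 tested, and at E12.5 4 were higher and 3 lower of 23. Several of the genes higher at E14.5 act in the hypothalamus. Sim1, needed for neurons of the paraventricular and supraoptic nuclei (chr10:50894754-50989152, plus strand), was at 19.1, 14.7 and 19.2 RPKM against 0.249, 0.0302 and 0.05003 and differed by 4.07 ± 0.18. Bsx, a factor of feeding-related hypothalamic neurons on chromosome 9, was at 10.7, 23.0 and 18.0 RPKM against no read, at least 67.0-fold higher.

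The zinc finger genes Fezf1 and Fezf2, which act in the early forebrain, followed the same pattern. Fezf1 was at 28.6, 17.8 and 13.8 RPKM in the forebrain and at 0, 0.0934 and 0 RPKM in the hindbrain (4.30 ± 0.25), and Fezf2 at 8.84, 17.8 and 18.1 RPKM against no read. Isl1, a LIM homeobox gene known for motor neurons that is also made in the developing hypothalamus and striatum (chr13:116298281-116309689, minus strand), was at 47.5, 46.7 and 36.6 RPKM against 2.30, 0.0856 and 0.568 RPKM in the hindbrain, a difference of 4.64 ± 0.36. Vax1, a factor of the optic stalk and the most rostral ventral forebrain, varied most among the leading genes within the forebrain, at 26.9, 17.4 and 7.84 RPKM, against no hindbrain read. Rax, required for the eye field and the hypothalamus, was at 3.17, 15.01 and 11.6 RPKM in the forebrain and 0 in the hindbrain (3.24 ± 0.46), lowest in the replicate where Vax1 was highest. The forebrain pieces thus differed among themselves in the level of these factors.

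Otp, a factor of neuroendocrine hypothalamic neurons, had 45.4, 24.7 and 16.5 RPKM in the forebrain and 11.6, 74.2 and 65.0 RPKM in the hindbrain. The libraries overlapped, and the difference was -0.53 ± 0.66 (adjusted p = 0.659). Without hindbrain replicate 2 it was -1.36 ± 0.35 (adjusted p = 0.0613).

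All 6 tested genes of the Dlx and Gsx list, homeobox genes of GABAergic progenitors and neurons in the ventral forebrain, were higher (median 3.97, or 3.86 with genes at 0 in the hindbrain set to their limit). Without forebrain replicate 3, 5 of the 6 were called. Dlx1 (chr2:71528113-71533981, plus strand) was at 95.7, 58.2 and 47.5 RPKM against no hindbrain read, at least 771-fold higher and a difference of 6.03 ± 0.24 (adjusted p = 2.12e-05). Its neighbour Dlx2 (chr2:71543408-71546754, minus strand) was at 27.9, 23.0 and 16.2 RPKM against 0.360, 0 and 0.145 (4.30 ± 0.22). In both genes replicate 2 was highest and replicate 4 lowest of the forebrain libraries. The transcripts Dlx1os (62.9, 40.2 and 28.6 RPKM against 0) and Dlx6os1 (25.0, 17.4 and 11.3 RPKM against 0, 0 and 0.0429) are antisense to Dlx1 and Dlx6. The strand setting of the counting is not given in the sources used here, so their reads cannot be told apart from those of the sense genes. The same limit holds for other leading genes that overlap an annotated gene on the opposite strand: Nkx2-1, Pmch, Mab21l1, Mab21l2, Gata3, Slc6a4, En2 and Slc30a3. Dlx5 was at 18.4, 13.6 and 8.21 RPKM against 0 (3.78 ± 0.27). Of the related list of ganglionic eminence and striatal genes, 4 were higher and 4 lower of 26 tested: Dlx2, Lhx6, Isl1 and Six3 were higher, and Cxcr4, Meis2, Penk and Ebf1 lower. Lhx6, a factor of migrating cortical interneurons, was at 7.63, 5.28 and 6.07 RPKM against 0, 0.122 and 0 in the hindbrain, and Cxcr4, a chemokine receptor, at 13.0, 12.3 and 16.2 against 34.6, 29.7 and 37.3 RPKM (-1.24 ± 0.13).

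**Figure D3:**
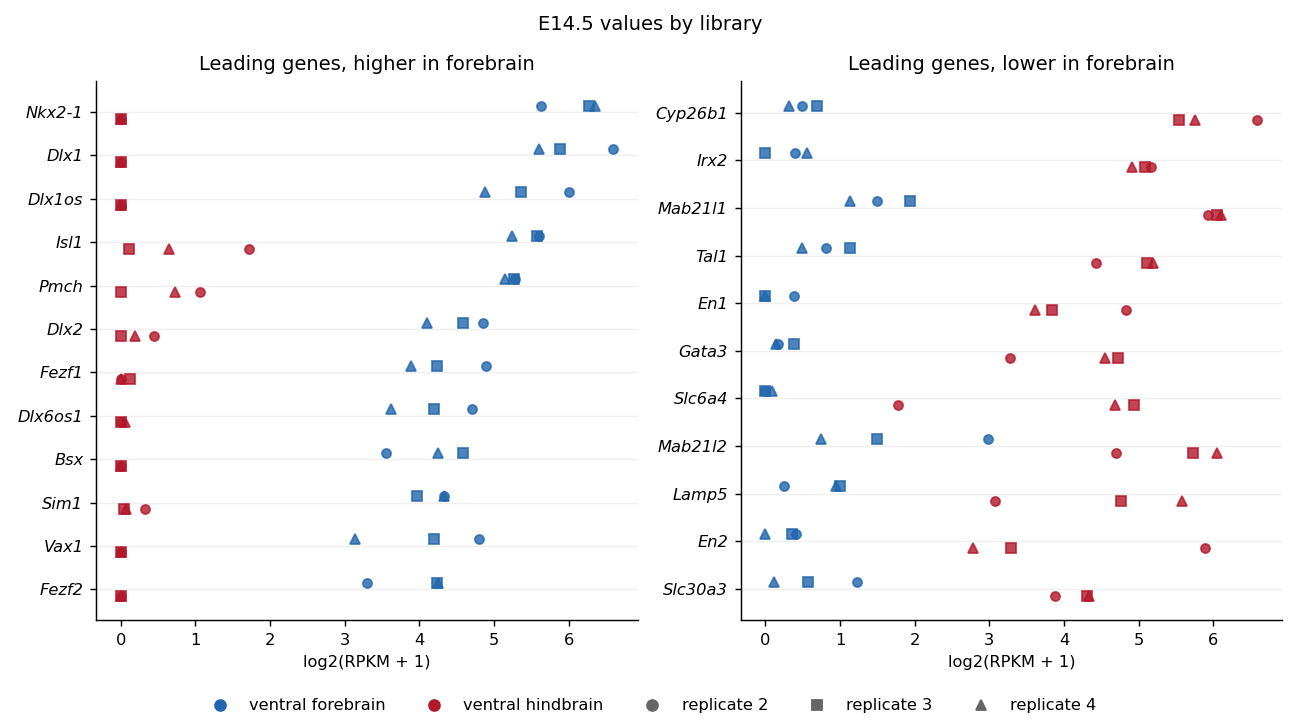
Leading genes in each direction (12 higher and 11 lower), with log2(RPKM + 1) of each library on the horizontal axis, blue for forebrain and red for hindbrain, and marker shape for the replicate. The genes were chosen among those whose regions do not overlap (31.1% of all genes tested); hindbrain replicate 2 (red circle) lies apart for Slc6a4 and En2, at 2.44 and 58.0 RPKM.

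Of 33 hypothalamic neuropeptide genes, 21 were tested, 3 were higher and 1 lower (median 0.93), with 11 at an unadjusted p below 0.05. Voom called 6 higher and 2 lower, and without hindbrain replicate 2 there were 5 and 3. Pmch, the precursor of melanin-concentrating hormone, was at 37.8, 37.3 and 34.4 RPKM in the forebrain and 1.09, 0 and 0.660 RPKM in the hindbrain (4.63 ± 0.25, adjusted p = 9.17e-05, limma). Its forebrain values were almost equal across libraries. Pomc, the precursor of melanocortins in arcuate neurons and in the pituitary, was at 13.51, 20.1 and 4.58 RPKM against 0.325, 1.10 and 0.785 (2.81 ± 0.45). Gal, for galanin, was at 4.01, 3.83 and 1.93 RPKM against 0, 0 and 0.934 (1.73 ± 0.35), while Penk, for enkephalin, was lower at 2.92, 2.70 and 0.682 against 6.75, 15.9 and 13.7 RPKM (-2.10 ± 0.39). The pituitary hormone genes Cga and Tshb had reads in forebrain replicate 3 alone. Cga was at 0, 6.46 and 0 RPKM and Tshb at 0, 5.48 and 0 RPKM, both 0 in the hindbrain. These were 5 and 4 reads. Of the 11 pituitary markers, 5 had no read in any of the 6 libraries, Pou1f1, Gh, Prl and Hesx1 among them. Without forebrain replicate 3, Pomc differed by 2.40 ± 0.42 (adjusted p = 0.0460).

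The promoters of a leading effector gene of each side are shown: the peptide precursor Pmch and the retinoic acid enzyme Cyp26b1. Capitals mark hexamers found by search on both strands: TATAAA, the core of the TATA box, and CAAGTG, a core bound by NKX2 factors. The Pmch promoter (chr10:88090822-88091071, plus strand, GRCm38.p6, RefSeq) ends at the base before the gene start. The Cyp26b1 window (chr6:84593909-84594060, minus strand) ends where the GENCODE gene begins and is therefore shorter.
Pmch: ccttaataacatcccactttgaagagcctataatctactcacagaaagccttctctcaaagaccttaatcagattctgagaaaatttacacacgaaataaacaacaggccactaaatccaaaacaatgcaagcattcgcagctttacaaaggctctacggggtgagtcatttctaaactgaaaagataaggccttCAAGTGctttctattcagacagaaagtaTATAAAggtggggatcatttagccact
Cyp26b1: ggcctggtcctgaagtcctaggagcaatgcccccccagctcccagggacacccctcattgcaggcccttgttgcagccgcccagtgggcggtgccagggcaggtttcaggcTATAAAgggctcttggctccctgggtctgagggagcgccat
TATAAA begins 27 bases before the Pmch start and 41 bases before the Cyp26b1 start, and CAAGTG begins 55 bases before the Pmch start. In windows of 250 bases before the RefSeq start, TATAAA was found in 11.1% of 117 higher genes with a promoter in the table, 15.04% of 133 lower genes and 5.99% of 9783 tested genes. CAAGTG was found in 11.1%, 10.5% and 9.14% of the same sets. Over all 27025 genes with a promoter, TATAAA was found in 13.0% and CAAGTG in 11.6%. Of the 11 leading forebrain genes with a promoter 1 held CAAGTG, the Pmch gene shown, and of 9 leading hindbrain genes 0 did. These matches are a description of letters, with no measure of binding.

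On the hindbrain side the largest difference belonged to Cyp26b1 (chr6:84571414-84593908, minus strand), the enzyme that breaks down retinoic acid. It was at 0.405, 0.619 and 0.243 RPKM in the forebrain and 95.3, 45.7 and 53.1 RPKM in the hindbrain (-5.46 ± 0.26, adjusted p = 4.43e-05, limma). The forebrain values were all below 1 RPKM, and the hindbrain values were highest in replicate 2. Of 13 tested retinoic acid genes, 3 were lower and 1 higher, with a median of 0.07. Dhrs3, which reduces retinal, was lower (1.06, 1.08 and 0.996 against 17.6, 8.30 and 8.65 RPKM), as was Crabp1, a retinoic acid carrier (1.43, 2.43 and 0.408 against 13.8, 14.2 and 13.3 RPKM, -2.70 ± 0.29). Stra6, a receptor for retinol uptake, was higher at 2.46, 3.27 and 1.97 against 0.372, 0.0601 and 0.299 RPKM (1.51 ± 0.24).

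Of the 35 hindbrain and isthmus transcription factors, 29 were tested, 18 were lower in the forebrain and 2 higher, with a median of -1.84. Without hindbrain replicate 2 the counts were again 18 and 2, and without forebrain replicate 3 they were 13 and 0. Irx2, an Iroquois gene (chr13:72628820-72634198, plus strand), was at 0.313, 0 and 0.469 RPKM in the forebrain and at 34.7, 33.0 and 29.1 RPKM in the hindbrain (-4.74 ± 0.18). Tal1 (chr4:115056426-115071755, plus strand) and Gata3 (chr2:9857078-9890034, minus strand) act together in the choice of GABAergic fate in the midbrain and hindbrain. Tal1 was at 0.753, 1.20 and 0.403 RPKM against 20.5, 33.5 and 35.6 (-4.10 ± 0.25) and Gata3 at 0.121, 0.308 and 0.104 RPKM against 8.67, 25.3 and 22.3 (-3.95 ± 0.36). Both were lowest in replicate 2 of the hindbrain libraries, where they still exceeded every forebrain library. The 2 members that were higher were Irx6 and Dbx1, at 10.3, 35.7 and 51.0 RPKM in the forebrain against 6.39, 1.65 and 0.257 RPKM for Dbx1, a factor of ventral interneuron progenitors.

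The engrailed genes En1 and En2 keep the identity of the isthmus and midbrain. En1 (chr1:120602418-120607992, plus strand) was at 0.302, 0 and 0 RPKM in the forebrain and 27.4, 13.3 and 11.2 RPKM in the hindbrain (-3.97 ± 0.32). En2 had 0.331, 0.281 and 0 RPKM against 58.0, 8.78 and 5.85 RPKM and differed by -3.73 ± 0.70, or by -2.78 ± 0.27 without hindbrain replicate 2. En2 was not called in 3 of the 6 fits that left out 1 library. In ventral midbrain pieces of the same stage, from another sequencing run, En1 averaged 61.1 RPKM and En2 56.4 RPKM. Of the 11 tested midbrain markers, 5 were lower in the forebrain (En1, En2, Pax7, Pax3 and Nkx6-1) and Barhl1 was higher. Pax7 was at 0.733, 2.10 and 1.14 RPKM against 11.0, 13.7 and 9.46 (-2.44 ± 0.24).

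Hox genes, which set the identity of hindbrain segments, were low. Of 23 in the list, 15 had no read in any of the 6 libraries and 3 were tested. Hoxa2 was at 0 in the forebrain and at 0.495, 6.59 and 11.6 RPKM in the hindbrain (-2.39 ± 0.69, adjusted p = 0.0802, limma). Hoxb2 was at 0 against 0.268, 3.38 and 6.90 RPKM (-1.82 ± 0.59, adjusted p = 0.108) and Hoxb3 at 0, 0.267 and 0 against 0, 1.41 and 3.61 RPKM (-1.04 ± 0.52, adjusted p = 0.251). None passed limma's test with all libraries (2 had an unadjusted p below 0.05, and voom, limma's model for the read counts recovered from the RPKM values, called 0), and all 3 were lower in the forebrain without hindbrain replicate 2, where Hoxa2 differed by -3.29 ± 0.28. Most Hox reads thus came from hindbrain replicates 3 and 4.

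Several of the leading hindbrain genes were shared with dorsal tissue. Mab21l1 (chr3:55782510-55785001, plus strand), a developmental gene of the eye and hindbrain, was at 1.81, 2.84 and 1.19 RPKM against 60.1, 65.0 and 67.6 RPKM (-4.50 ± 0.19), and averaged 109 RPKM in the alar plate, the dorsal part of the neural tube, of the same run. Its relative Mab21l2 was at 6.87, 1.82 and 0.674 against 24.8, 52.2 and 64.9 RPKM (-3.75 ± 0.55), with 55.2 RPKM in the alar plate. Irx2, Tal1 and Gata3 averaged 31.5, 36.7 and 29.8 RPKM there. Lamp5, a membrane protein of neurons, was low in the alar plate: it was at 0.195, 0.994 and 0.919 against 7.45, 26.1 and 46.6 RPKM (-3.74 ± 0.56) with an alar plate mean of 0.268 RPKM. Slc30a3, a zinc transporter of synaptic vesicles, was at 1.34, 0.486 and 0.0818 RPKM against 13.7, 18.7 and 19.3 (-3.54 ± 0.28). The 12 leading forebrain genes were almost absent from the alar plate, with the highest mean, 1.13 RPKM, for Isl1.

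Serotonergic genes of the raphe neurons were on the hindbrain side, with 3 lower and none higher of 14 tested (median -0.74). Slc6a4, the serotonin transporter (chr11:76998603-77032340, plus strand), was at 0, 0 and 0.0603 RPKM in the forebrain and 2.44, 29.7 and 24.7 RPKM in the hindbrain (-3.77 ± 0.73, adjusted p = 0.0270, limma). Tph2, the rate-limiting enzyme of serotonin synthesis in neurons, was at 0, 0 and 0.0630 against 2.04, 19.3 and 16.4 RPKM (-3.33 ± 0.64). Fev, the factor that fixes serotonergic fate, had no forebrain read and 0.587, 8.69 and 7.20 RPKM in the hindbrain, and its difference of -2.33 ± 0.62 did not pass (adjusted p = 0.0668). All 3 were far lower in hindbrain replicate 2 than in the other hindbrain libraries. Without that library 8 of 14 were lower, with Slc6a4 at -4.78 ± 0.19 and Fev at -3.16 ± 0.22 (adjusted p = 0.000516, limma). Hindbrain replicate 2 stands apart in Slc6a4, Tph2 and Fev, so the fit without it is no independent test of them. Slc6a4 and Tph2 were called in only 1 of the 6 fits that left out 1 library, the one without hindbrain replicate 2. In the ventral midbrain of the same stage Slc6a4 averaged 22.6 RPKM.

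Floor plate genes gave no call among 18 tested by limma (median -0.38), although 7 had an unadjusted p below 0.05 and voom called 1 higher and 0 lower. There were 9 lower and 1 higher without hindbrain replicate 2. Shh, the ligand itself, was at 6.67, 10.3 and 16.5 RPKM in the forebrain and 0.670, 17.9 and 10.9 RPKM in the hindbrain (0.68 ± 0.80, adjusted p = 0.640). The regions overlapped. Foxa2 was at 0.900, 0.917 and 0.848 against 0, 4.44 and 4.52 RPKM (-0.72 ± 0.61, adjusted p = 0.497), and -1.54 ± 0.20 without hindbrain replicate 2 (adjusted p = 0.00591). Corin, a floor plate protease, was at 0, 0 and 0.167 against 0.0903, 14.54 and 11.3 RPKM. Lmx1a, a factor of the roof plate, the midbrain floor plate and the posterior hypothalamus, went the other way at 14.8, 21.1 and 32.9 against 10.2, 0.131 and 0.108 RPKM (3.24 ± 0.83, adjusted p = 0.0596). Without hindbrain replicate 2 its difference was 4.35 ± 0.30 (adjusted p = 0.000446, limma). Foxa2, Corin and Lmx1a are among the genes in which that library stands apart, so the fit without it is no independent test of them.

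Of 17 cranial motor neuron genes, 10 were tested, with 2 higher and 2 lower. Chat, the enzyme of acetylcholine synthesis, was below the filter and had no forebrain read and 0.478, 0.0773 and 0.128 RPKM in the hindbrain. The called members were Isl1 and Tbx3, higher, and Lhx4 and Nkx6-1, lower. Isl1 and Tbx3 also stand in the list of ventral forebrain factors. Lhx4, a LIM factor of motor neurons and V2 interneurons, was at 0.206, 0 and 0 against 3.80, 5.19 and 4.68 RPKM (-2.38 ± 0.22). Tbx3, a factor of the arcuate region of the hypothalamus, was at 2.76, 8.48 and 7.17 against 0, 0.137 and 0.151 RPKM (2.60 ± 0.35).

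Among catecholamine genes, Th, the rate-limiting enzyme of dopamine synthesis and the gene whose regulatory sequence drives the reporter, was higher in the forebrain. It was at 10.1, 8.25 and 7.21 RPKM against 4.49, 0.484 and 1.10 RPKM (1.87 ± 0.43, adjusted p = 0.0451, limma), and its call was lost in 5 of the 6 fits that left out 1 library. The noradrenergic gene Dbh, for dopamine beta-hydroxylase, was at 0 against 5.45, 2.83 and 0.783 RPKM, and Slc6a2, the noradrenaline transporter, at 0 against 5.33, 4.19 and 0.906 RPKM (-1.99 ± 0.43). Both were highest in hindbrain replicate 2. Slc6a2 was the only lower call of 6 tested noradrenergic genes, with Gal and Th higher, and without hindbrain replicate 2 it was not called (-1.65 ± 0.43, adjusted p = 0.0627, limma). Voom called the list 2 higher and 0 lower, and no member was called without forebrain replicate 3. Of 19 tested dopaminergic genes, Th, Calb1 and Dlk1 were higher and En1, En2 and Sncg lower, with 4 higher and 6 lower without hindbrain replicate 2 and 1 higher and 2 lower without forebrain replicate 3. Sncg, for gamma-synuclein, was at 6.27, 1.23 and 2.48 RPKM against 18.4, 20.0 and 29.8 (-2.60 ± 0.39). Dlk1, a Notch-related membrane protein, was at 94.8, 134 and 120.5 RPKM against 13.501, 18.3 and 14.51 (2.83 ± 0.15, adjusted p = 8.12e-05). Slc6a3, the dopamine transporter, and Pitx3, a factor of midbrain dopaminergic neurons, did not reach the filter in either region.

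Neurons of both transmitter classes were present in both regions. Slc32a1, the vesicular transporter of GABA and glycine, was lower in the forebrain at 16.6, 11.6 and 6.92 RPKM against 31.4, 32.3 and 33.4 (-1.47 ± 0.25), and Pax2, a factor of inhibitory interneurons, at 0.513, 0 and 0.0549 against 6.23, 4.46 and 6.32 RPKM (-2.50 ± 0.24). Over the inhibitory list, 1 was higher and 2 lower of 19 tested. Of its differences 15 were negative and 4 positive (median -0.78), and 15 had an unadjusted p below 0.05 by limma. Voom called 1 higher and 6 lower. Limma called 1 higher and 5 lower of 18 without hindbrain replicate 2, and 0 and 1 of 19 without forebrain replicate 3. Slc17a6, the vesicular glutamate transporter of subcortical neurons, was at 35.0, 38.6 and 50.1 RPKM against 24.2, 17.4 and 19.7, and its difference of 0.97 ± 0.16 (adjusted p = 0.0139, limma) fell short of the size required. In the glutamatergic list 2 of 14 were higher: Neurog2, a proneural factor, at 18.5, 18.95 and 36.9 against 6.40, 4.56 and 2.98 RPKM (2.16 ± 0.30), and Barhl1, a homeobox gene of excitatory neurons, at 12.1, 19.1 and 22.8 against 7.21, 0.0593 and 0.0983 RPKM (3.12 ± 0.73). The call of Barhl1 was lost in 5 of the 6 fits that left out 1 library. Slc17a8, the vesicular glutamate transporter also found in serotonergic neurons, was at 1.06, 0.449 and 0.415 against 1.12, 24.9 and 20.0 RPKM and was not called (adjusted p = 0.0968). Without hindbrain replicate 2 it was lower (-3.85 ± 0.23).

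Genes of neuronal maturation lay on the hindbrain side. All 22 tested differences were negative (median -0.36, against 0.03 over all genes tested) and 3 were called. Nefl, the light neurofilament chain of axons, was at 44.1, 52.5 and 39.9 RPKM in the forebrain and 153, 105 and 116 RPKM in the hindbrain (-1.42 ± 0.15, adjusted p = 0.00236, limma). Nefm, the medium chain, was at 22.5, 19.9 and 22.0 against 94.8, 47.8 and 59.2 RPKM (-1.54 ± 0.22). The third was Sncb, for beta-synuclein. Cell cycle genes lay on the other side, with 34 of 35 differences positive (median 0.91), 3 called, 19 called without hindbrain replicate 2 and 1 called without forebrain replicate 3. Voom called 24 of them higher and 0 lower. Ccnd1, the cyclin of the G1 phase, was at 29.5, 47.4 and 55.0 against 14.4, 9.69 and 10.005 RPKM (1.84 ± 0.23), and Ccnb1, the mitotic cyclin, at 13.1, 17.3 and 20.0 against 9.60, 3.63 and 4.32 RPKM (1.46 ± 0.30). The summed level of the 35 genes was 386, 572 and 707 RPKM in the forebrain libraries and 406, 217 and 226 RPKM in those of the hindbrain. Hindbrain replicate 2 was within the forebrain range. Cenpe, a centromere motor, was the third called gene, at 4.21, 5.68 and 6.69 against 3.22, 1.53 and 1.67 RPKM.

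Progenitor and glial genes split by gene rather than by list. Of 26 progenitor and radial glia genes, 3 were higher and 2 lower. Nr2e1, an orphan receptor of forebrain stem cells, was at 8.42, 5.21 and 6.80 RPKM against no hindbrain read (2.94 ± 0.22), and Hes1, a Notch target, at 13.7, 16.5 and 13.51 against 2.99, 6.23 and 6.61 RPKM (1.36 ± 0.24). Tnc, the matrix protein tenascin C, was lower at 8.97, 8.94 and 8.42 against 41.5, 34.8 and 37.1 RPKM (-1.99 ± 0.10, adjusted p = 4.43e-05, limma), with almost no spread within the forebrain. Astroglial genes counted 1 higher and 3 lower of 14. Sparcl1, a secreted protein of astrocytes, was lower at 18.3, 31.4 and 27.9 against 92.3, 118 and 121 RPKM (-2.07 ± 0.19), Aldh1l1, a folate enzyme of astrocytes, at 11.0, 12.51 and 15.4 against 28.8, 36.3 and 35.1 RPKM, and Slc1a3, the glial glutamate transporter, at 34.5, 29.9 and 33.5 against 61.6, 109.6 and 106 RPKM. Fabp7, the lipid-binding protein of radial glia, was the most abundant of these at 487, 474 and 582 against 831, 1046 and 1046 RPKM, and its difference of -0.92 ± 0.12 stayed under the size required (adjusted p = 0.00543). Of 13 oligodendrocyte precursor genes, 2 were higher, Olig2 among them, and Bcan and Sox8 were lower. Olig2, a factor of motor neuron and oligodendrocyte progenitors, was at 10.3, 16.1 and 17.5 against 7.31, 6.20 and 6.32 RPKM (1.01 ± 0.19).

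**Figure D4:**
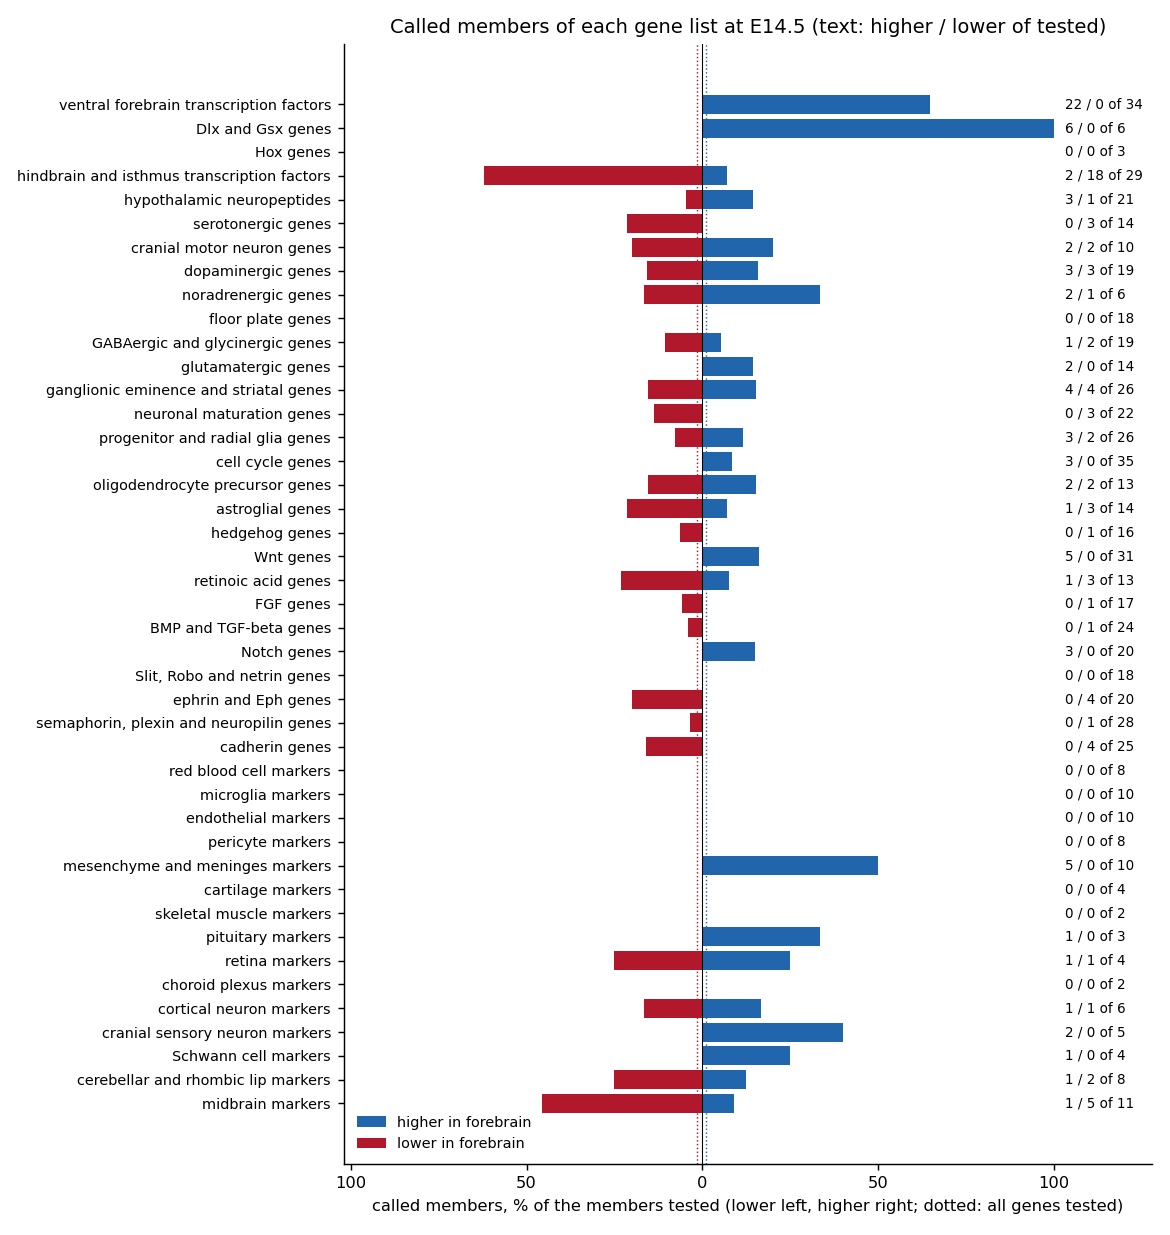
Called members of 43 gene lists as a percentage of the members tested, with lower in the forebrain to the left (red) and higher to the right (blue). Dotted lines mark the shares over all genes tested (1.18% higher, 1.38% lower); the ventral forebrain factors stand at 22 of 34 higher and the hindbrain and isthmus factors at 18 of 29 lower.

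Of 31 tested Wnt genes, 5 were higher and none lower, and 12 had an unadjusted p below 0.05. Wnt8b, a ligand of the forebrain midline, was at 9.46, 14.7 and 24.6 RPKM against 0.267, 0.194 and 0.0537 (3.79 ± 0.31), Fzd5, a receptor of the hypothalamus and eye, at 4.74, 8.30 and 5.78 against 0.198, 0.128 and 0.0266 RPKM (2.68 ± 0.23), and Rspo2, a secreted enhancer of Wnt signalling, at 7.34, 10.4 and 17.1 against 1.21, 0.392 and 0.271 RPKM. Lef1, a nuclear effector, was at 4.98, 8.90 and 9.12 against 2.20, 0.890 and 0.886 RPKM (1.90 ± 0.29). The fifth was Dkk2, a secreted modulator. In the Notch list, where 11 of 20 had an unadjusted p below 0.05, 3 were higher: Mfng, which adds sugars to Notch receptors (17.4, 19.5 and 26.4 against 5.27, 3.60 and 6.08 RPKM, 1.89 ± 0.20), and the targets Hey2 (5.79, 5.04 and 5.74 against 0.881, 1.71 and 1.28 RPKM) and Hes1. Without forebrain replicate 3, 3 Wnt genes and 2 Notch genes were higher.

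In the hedgehog list 1 of 16 was called, Scube2, a factor that releases the ligand, lower at 0.219, 0 and 0.281 against 1.77, 1.53 and 1.38 RPKM (-1.14 ± 0.24). The receptor and target Ptch1 was at 27.3, 24.8 and 25.6 against 14.0, 22.4 and 22.8 RPKM (0.41 ± 0.17, adjusted p = 0.192, limma). In the FGF list Etv5, a transcriptional target, was the 1 called member of 17, lower at 3.88, 2.08 and 3.59 against 15.2, 8.08 and 6.99 RPKM (-1.36 ± 0.29). In the BMP and TGF-beta list Tgfb2 was the 1 called member of 24, lower at 3.57, 3.39 and 1.67 against 5.67, 7.59 and 7.42 RPKM (-1.06 ± 0.24). Without forebrain replicate 3 none of the 3 lists had a called member.

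The called guidance and adhesion genes were all lower in the forebrain. Of 20 ephrin and Eph genes, Epha4, Epha5, Epha6 and Epha10 were lower. Epha4, a repulsive axon guidance receptor, was at 10.5, 13.0 and 13.0 RPKM against 33.5, 30.8 and 33.6 (-1.35 ± 0.10, adjusted p = 0.000533, limma), and Epha5 at 11.0, 8.03 and 8.89 against 18.2, 33.4 and 32.0 RPKM (-1.45 ± 0.22). Efna5, a ligand of these receptors, was at 17.6, 17.5 and 17.5 against 11.4, 7.38 and 7.45 RPKM, a difference of 0.95 ± 0.16 that stayed under the size required (adjusted p = 0.0161). Without hindbrain replicate 2 it was called higher (1.14 ± 0.10). Of 25 cadherins, Cdh13, Cdh10, Cdh20 and Cdh8 were lower, with Cdh13 at 14.8, 13.7 and 14.7 against 27.0, 40.7 and 39.9 RPKM (-1.24 ± 0.15). Sema3a, a secreted repellent, was the 1 called member of 28 semaphorin, plexin and neuropilin genes, lower at 1.47, 2.63 and 2.14 against 12.9, 7.15 and 8.38 RPKM (-1.75 ± 0.24). Without forebrain replicate 3, 1 ephrin and Eph gene and 1 cadherin were called. None of 18 Slit, Robo and netrin genes was called by limma, with 5 at an unadjusted p below 0.05 and 0 lower by voom, while without hindbrain replicate 2 limma called 3 lower. Robo1, the Slit receptor, had the smallest adjusted p among them, at 38.6, 38.8 and 41.7 against 50.9, 57.8 and 58.8 RPKM (-0.48 ± 0.08, adjusted p = 0.0161).

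Markers of other cell types were read in the same way. Of 10 tested mesenchyme and meninges markers, 5 were higher in the forebrain: Foxd1, Col3a1, Lum, Col1a1 and Col1a2. Col3a1, a collagen of connective tissue, was at 10.9, 66.9 and 27.7 RPKM against 1.23, 1.23 and 0.988 (3.73 ± 0.53, adjusted p = 0.00776, limma), and Lum, a matrix proteoglycan, at 2.95, 11.7 and 6.08 against 0, 0.310 and 0 RPKM. Foxd1, which is made in meningeal precursors and also in the hypothalamus, was at 2.51, 5.18 and 3.55 against 0.362, 0.176 and 0.146 RPKM. The summed level of the 12 markers was 32.2, 174 and 78.2 RPKM in the forebrain libraries and 7.65, 11.8 and 11.9 RPKM in the hindbrain libraries, so all forebrain libraries held more. Without forebrain replicate 3, 4 of the markers were still called. The part of this tissue in the other forebrain calls was not tested.

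No marker of red blood cells (8 tested), microglia (10), endothelium (10), pericytes (8), cartilage (4), skeletal muscle (2) or choroid plexus (2) was called with all libraries. At an unadjusted p below 0.05 there were 5 genes for red blood cells, 2 for microglia, 5 for endothelium, 3 for cartilage, 1 for choroid plexus and none for pericytes or muscle. Over all 13587 genes tested, 3408 were at that level. Voom called none of these markers. The smallest adjusted p was that of Kdr, a receptor of endothelial cells, at 11.99, 11.96 and 11.4 against 8.10, 9.27 and 9.10 RPKM (0.38 ± 0.10, unadjusted p = 0.00642, adjusted p = 0.0702, limma). Summed globin and other red cell markers were 1229, 2002 and 1536 RPKM in the forebrain and 1166, 1186 and 1289 RPKM in the hindbrain. Vtn, for the matrix protein vitronectin, listed as a pericyte marker, was at 6.74, 16.6 and 21.4 against 7.29, 56.8 and 51.0 RPKM. Called members of the remaining marker lists included neural regulators with other roles, such as Pomc (pituitary), Rax (retina), Fezf2 and Bhlhe22 (cortical neurons), Isl1 and Prdm12 (cranial sensory neurons) and Mab21l1, Barhl1 and Olig3 (cerebellum and rhombic lip).

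The same contrast was made in the libraries of E13.5 and E12.5, which came from other sequencing runs, so stage and run cannot be told apart. At E13.5, 518 of 13425 genes were called (3.86%), 212 higher (1.58%) and 306 lower (2.28%), and at E12.5 177 of 13153 (1.35%), 39 higher (0.297%) and 138 lower (1.05%). Of the 347 genes of E14.5, 344 were tested at E13.5 and 178 were called in the same direction, none in the opposite one. That is 51.3% of the E14.5 calls and 34.4% of the E13.5 calls. At E12.5, 312 were tested and 34 called in the same direction, or 9.80% of the E14.5 calls and 19.2% of the E12.5 calls. By direction, 69 of 158 higher genes and 109 of 186 lower genes were shared with E13.5, and 8 of 130 and 26 of 182 with E12.5. The E14.5 libraries had at most 5822096 reads, and those of the earlier stages at least 7944211 reads.

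Some of the earlier forebrain libraries went against their label. Gata3, which was under 1 RPKM in every forebrain library of E14.5, was at 0.206, 20.0 and 0.177 RPKM in the E13.5 forebrain libraries (replicates 4, 5 and 6) and at 9.65, 39.2 and 21.1 RPKM in those of E12.5 (replicates 1, 2 and 3). Irx2 gave 0.799, 28.4 and 0.734 and 33.7, 42.2 and 20.6 RPKM in the same libraries. Nkx2-1 was at 99.7, 42.8 and 109.5 RPKM at E13.5 and at only 0.0357, 0.561 and 13.9 RPKM at E12.5. Replicate 5 of E13.5 and all forebrain libraries of E12.5 thus carried genes that the E14.5 pieces lacked. Without replicate 5, 621 genes were called at E13.5 (4.61%) and 219 of the 347 genes of E14.5 were among them.

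**Figure D5:**
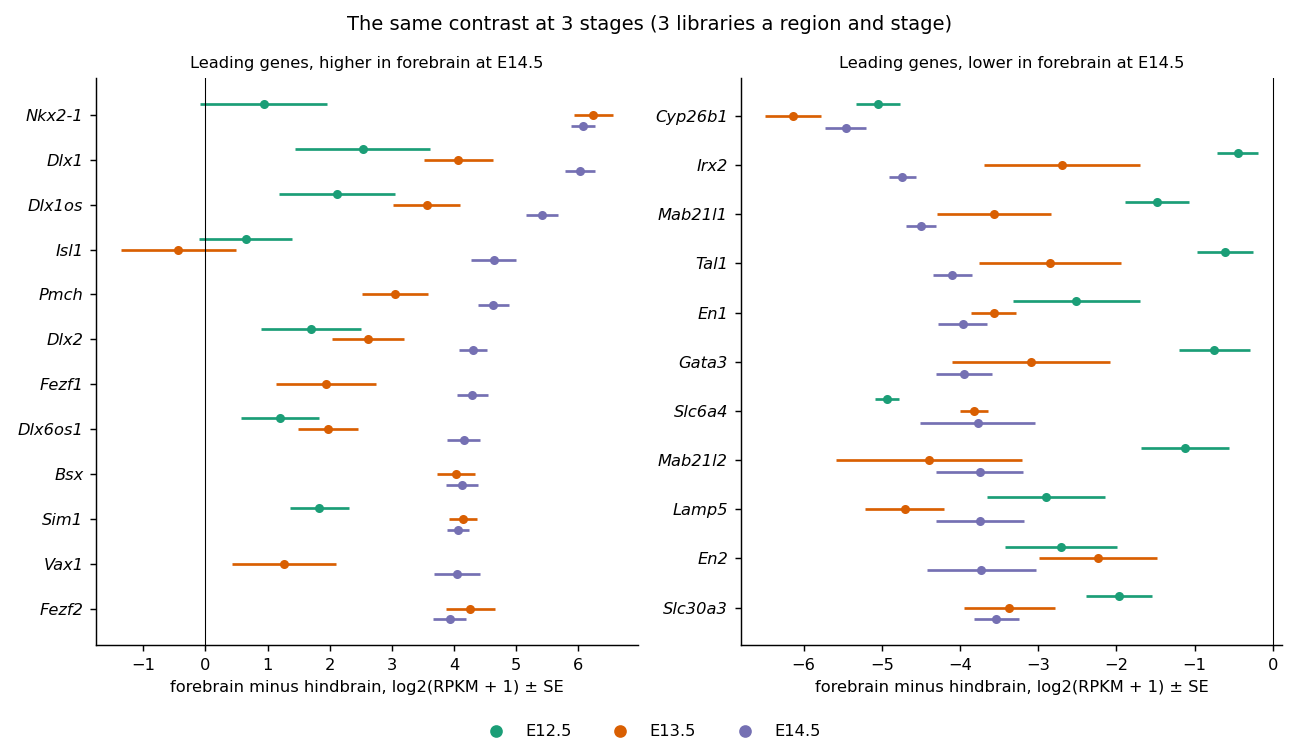
Forebrain minus hindbrain difference with its standard error at E12.5 (green), E13.5 (orange) and E14.5 (purple) for leading genes of each direction (12 higher and 11 lower), 3 libraries per region and stage. A stage at which a gene was not tested has no point; Cyp26b1 and Slc6a4 stand below -3 at all 3 stages, while Isl1 stands at -0.44 at E13.5 and 4.64 at E14.5.

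Some leading genes of the hindbrain were called at every stage. Cyp26b1 differed by -5.05 ± 0.28 at E12.5 and -6.14 ± 0.35 at E13.5, and Slc6a4 by -4.94 ± 0.15 and -3.82 ± 0.18. Both were called at each of these stages. Irx2 and Tal1 were called at neither, but at E13.5 without forebrain replicate 5 both were (-4.04 ± 0.21 and -4.07 ± 0.21). On the forebrain side, Pmch differed by 3.05 ± 0.53 at E13.5 (adjusted p = 0.0154, limma), where the forebrain libraries had 33.0, 7.72 and 6.10 RPKM, and was not tested at E12.5. Isl1 differed by -0.44 ± 0.93 at E13.5, with 34.6, 3.12 and 2.64 RPKM in the forebrain and 14.3, 3.27 and 19.3 RPKM in the hindbrain. Asb4, Hmx2 and Hmx3 were higher in the forebrain at E14.5 and lower at E12.5, and were the only genes called in opposite directions at those stages (chosen after their values were seen). Hmx3, a homeobox gene of the hypothalamus and inner ear, was at 5.19, 10.4 and 8.31 against 0, 1.69 and 1.27 RPKM at E14.5 and had no forebrain read against 3.70, 2.24 and 2.30 RPKM at E12.5. Asb4, a ubiquitin ligase subunit of hypothalamic neurons, was at 26.9, 33.8 and 32.9 against 7.26, 7.84 and 6.01 RPKM at E14.5 and 2.38, 2.19 and 3.66 against 7.41, 6.61 and 6.50 RPKM at E12.5.

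A direct test of the change of the difference from E13.5 to E14.5, over 12 libraries, called 1 of 13833 genes (0.00723%), with 797 at an unadjusted p below 0.05. Lbx1, a homeobox gene of dorsal hindbrain interneurons (chr19:45232684-45235812, minus strand), was at 17.6, 13.45 and 19.9 RPKM in the hindbrain libraries of E13.5 and 2.40, 0.933 and 1.16 RPKM in those of E14.5. In the forebrain it was at 0.101, 0 and 0 RPKM at E13.5 and 0 at E14.5. Its difference moved from -4.10 ± 0.15 to -1.28 ± 0.29, a change of 2.83 ± 0.30 (adjusted p = 0.0109, limma). No other gene passed, which does not show that their differences stayed the same. No gene was called at all with a pseudocount of 0.1 or 0.5, by voom, or without any 1 of hindbrain replicates 4 and 6 and forebrain replicates 5 and 6 of E13.5 and replicate 4 of either region at E14.5. Isl1 changed by 5.08 ± 1.12 (adjusted p = 0.761).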

How the data were processed

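Bulk RNA sequencing was done on dissected mouse embryonic brain regions. Per the labels' protocols, RNA was extracted with an RNeasy kit and sequenced from TruSeq libraries. Reads were mapped with Bowtie to mm10, per the submitters' processing notes, with no version given. The sources used here do not name the counter, annotation, filters or strand setting. The authors deposited RPKM values per gene. This unit was read from the values: multiplied by the listed transcript length they sum to 1000000 per library, and 100.0% of them are whole reads within 0.001 of a read. Reads and depth were recovered from that step.

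Values were tested with limma 3.58.1 (R 4.3.3) with its trend option on values of log2(RPKM + 1), using the 6 libraries of E14.5 and, for the other stages, the 6 of each. Genes entered with a mean of at least 1 RPKM in either region. A call needs a log2 difference of at least 1 in size and an adjusted p (Benjamini-Hochberg) below 0.05. The contrast across stages used 12 libraries. All 6 libraries of E14.5 share 1 run, per the sample descriptions. The labels do not say that a replicate number marks a shared embryo or litter, and the fit at E14.5 has no block; at E12.5 same-numbered libraries deviated together across genes (r = 0.248 to 0.319), as found in the data. The fit was checked on simulated data. E11.5 is not used here.

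The comparison and the 44 gene lists (681 genes) were chosen with earlier results of these data known. Named genes are the 12 called genes with the largest difference each way (mean of at least 5 RPKM in the higher region, no overlap, predicted genes passed over), up to 4 members of each list by smallest adjusted p, 13 core genes, the genes called for a change across stages, and those next to a threshold; others are said to be chosen after their values were seen. Some further members are named only to say which were called. Some members of these groups are not reported here, though all count in the totals. Gene positions are from GENCODE vM21, promoters from RefSeq GRCm38.p6, both of the mm10 build; 11 of the 12 leading forebrain genes and 9 of the 12 hindbrain genes had a promoter there. Alternatives were other pseudocounts (0.1 and 0.5), filters, median centring, a replicate block, larger sets of libraries, each library left out and limma's voom on recovered reads.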

Additional observations from a re-analysis of the deposited data

Results flagged for a closer look

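The forebrain minus hindbrain difference of Lbx1 itself differed between stages in a direct test. It changed by 2.83 ± 0.30 on the log2 scale from E13.5 to E14.5 (adjusted p = 0.0109, limma, 12 libraries), as every hindbrain library of E13.5, at 17.6, 13.45 and 19.9 RPKM, exceeded every hindbrain library of E14.5, at 2.40, 0.933 and 1.16 RPKM. Stage and sequencing run cannot be told apart in this change. For Hoxb2, the hindbrain libraries were at 23.2, 1.99 and 25.3 and 0.268, 3.38 and 6.90 RPKM at E13.5 and E14.5 in turn, with a change of 1.81 ± 1.07 that did not pass (adjusted p = 0.874). Groups of 3 libraries were too small to test single libraries as outliers.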

How the results depend on the processing

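At E14.5 the count of 347 called genes was 683 (368 higher and 315 lower) with voom on recovered reads, an alternative chosen after seeing the data, 855 with no fold threshold, and 189 to 509 with 1 library left out. It stayed within 1.5 times, at 245 to 396, with pseudocounts of 0.1 and 0.5, other filters, median centring, a replicate block or more libraries. At E13.5, leaving out 1 library gave 237 to 621 against 518, with 299, 237 and 316 without hindbrain replicates 4 and 6 and forebrain replicate 6. At E12.5 a mean of at least 5 RPKM gave 104 against 177, and leaving out 1 library 59 to 265, with 94, 95 and 59 without forebrain replicate 2 and hindbrain replicates 2 and 3. The change between stages called 0 genes with a pseudocount of 0.1 or 0.5, a mean of at least 5 RPKM, the replicate block or voom, and 0 to 19 with 1 library left out. It was 15 without E13.5 hindbrain replicate 5 and 19 without E13.5 forebrain replicate 4. The cause of these changes was not tested, beyond the smaller number of libraries. Of the genes named, 2 turned their sign with 1 library left out: Shh ranged from -0.38 to 1.37, negative without hindbrain replicate 2, and Meg3 from -0.12 to 0.24, negative without that library and, at -0.05, without forebrain replicate 2. Neither was called in these fits.

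At E14.5 the deviations of same-numbered libraries were almost uncorrelated across genes (r = -0.0201 to 0.0258), although Y-linked reads fell in replicate 2 of both regions. Whether numbers pair libraries there is thus not known. At E13.5 the correlations were uneven (0.0644 to 0.293). The replicate block gave 245 calls at E14.5, 509 at E13.5 and 186 at E12.5. Same-numbered libraries deviated together at E12.5, but the labels do not say that they pair, and the main count of 177 has no block. The planned count tests, edgeR and DESeq2, were not run, as the deposited unit is RPKM, although read counts could be recovered. Voom on the recovered reads was added in their place. The shallowest library, with 979197 reads, limits what could be detected in genes of low level.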

Other observations

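Imprinted genes, of which only the copy from 1 parent is active, stood out among the higher genes that no list covered. Dlk1, described below, is an exception, as it also stands in the dopaminergic list. A list of 54 imprinted genes was written after some of their values had been seen, so its counts are a description with no test. Of the 44 tested, 15 were higher in the forebrain and 1 lower, against 1.18% and 1.38% of all genes, with a median difference of 0.44. Magel2, a gene of the Prader-Willi region that acts in the hypothalamus, was at 80.3, 84.3 and 76.0 RPKM in the forebrain libraries and 14.8, 16.2 and 15.9 RPKM in those of the hindbrain (2.29 ± 0.08, adjusted p = 1.21e-05, limma over all genes). Mest was at 167, 233 and 272 RPKM against 59.1, 45.5 and 44.7 (2.13 ± 0.18), Peg10 at 219.9, 260.1 and 261 against 81.1, 73.1 and 65.4 RPKM (1.74 ± 0.10), and Peg3 at 122, 143 and 125 against 43.1, 63.8 and 59.5 RPKM (1.23 ± 0.14). Zdbf2 was at 44.2, 42.8 and 40.5 against 15.6, 16.6 and 14.6 RPKM and Plagl1 at 38.3, 54.5 and 65.6 against 18.6, 15.9 and 17.2 RPKM.

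Dlk1 and Rtl1 lie in the same imprinted cluster as Meg3 and Rian. Dlk1 and Rtl1, active from the paternal copy, were higher in the forebrain, Rtl1 at 4.36, 8.23 and 8.76 RPKM against 0.521, 0.506 and 0.385 (2.42 ± 0.26). The parental copy that reads came from was not measured for any gene of the cluster, and their strand is not known. Meg3 and Rian, active from the maternal copy, were not called: Meg3 was at 156, 125 and 109 against 88.9, 149 and 132 RPKM (0.09 ± 0.20, adjusted p = 0.806, limma) and Rian at 221, 200.4 and 217 against 129.6, 162 and 179 RPKM (0.45 ± 0.12, adjusted p = 0.0604). Igf2, which connective tissue also makes, was at 22.7, 69.0 and 32.9 against 12.4, 13.1 and 13.8 RPKM, highest in forebrain replicate 3, where the mesenchyme markers were highest too; their part in it was not tested. Without forebrain replicate 3, 14 were higher, and without hindbrain replicate 2, 15. At E13.5, 11 of 43 tested were higher and none lower, and at E12.5 1 was higher and 1 lower of 43. Mest and Copg2 overlap in opposite directions, so without strand their reads cannot be told apart.

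Of the other called genes outside the lists, Pbx3 and Meis1, homeobox genes whose products pair with HOX proteins, were among the most abundant on the hindbrain side (chosen after their values were seen). Pbx3 was at 33.8, 29.9 and 33.8 RPKM in the forebrain and 107, 146 and 149.6 RPKM in the hindbrain (-1.998 ± 0.13), and Meis1 at 5.89, 2.60 and 0.728 against 27.1, 38.7 and 42.8 RPKM (-3.39 ± 0.44). Both separated the regions in all libraries, hindbrain replicate 2 included, where the tested Hox genes were below 1 RPKM.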
